A study of Arabidopsis thaliana with 6 samples.

Results

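The genes encoded by the mitochondrial genome were compared in roots of the spy-3 mutant and of wild-type Arabidopsis thaliana, and for none of the 12 genes measured was a difference between the genotypes detected. The probe sets were chosen by identity and not by their values. They are those in the lowest range of probe numbers on the Affymetrix ATH1 array that are annotated to 1 gene, whose gene symbol is not an AT-number locus and whose gene belongs to neither the nucleus nor the plastid. This gave 12 probe sets for 12 genes, of 13350 genes with a probe set annotated to 1 gene and of 22746 probe sets in all. All 12 matched a mitochondrial gene of the RefSeq table, 5 of them through an older name. That table lists 32 distinct protein-coding genes for the mitochondrion, so the 12 are a minority of them. By class they are 5 genes of complex I (nad4, nad4L, nad6, nad7 and nad9), 1 of complex IV (cox2), 4 of cytochrome c maturation (ccmB, ccmFN1, ccmFN2 and ccmFC, listed on the array as ccb206, ccb382, ccb203 and ccb452), the maturase gene matR, and mttB, listed as orfX.

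The groups were 3 arrays of spy-3 roots and 3 arrays of wild-type roots, both in the Col ecotype. SPY encodes an O-linked sugar transferase, and spy-3 was the only mutant allele measured here. RNA came from whole roots of untreated seedlings collected at 7 days from vertical MS plates under 16 h light and 8 h dark. With whole roots, fewer cells of a type and less RNA per cell cannot be told apart. The 3 replicates of a genotype are described as biological, but no source says that they were grown or collected apart, and the tests therefore rest only on how far these arrays differ from one another.

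The plant mitochondrion keeps a small genome that codes for core subunits of the respiratory chain, for part of the machinery that attaches heme to cytochrome c, and for parts of its own gene expression apparatus. The remaining subunits of the same complexes are encoded in the nucleus and imported. Mitochondrial transcripts are shaped after transcription by intron splicing and C-to-U editing, which depend on proteins from the nucleus, and they mostly lack the stable poly(A) tails of nuclear mRNAs. In roots, respiration is the main source of ATP.

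The values are MAS5 signals on a linear scale in arbitrary units, and the median signal of an array was 85.4 to 87.2. On every array, 10 of the 12 probe sets lay below the median of that array. The ccmFN1 probe set lay above it on all 6 arrays, and that of nad4 on 2. No member had a signal under 1, the level at which signals were floored. The brightness of a probe set depends on its probes and on how its RNA was primed and labeled, which the sources used here do not give for transcripts without poly(A) tails, so the signals are compared between arrays and not between genes. The labeled tissue was checked with markers. The root hair gene EXPA7 and the cortex gene AT1G62500, the root markers with an own probe set among 8 listed, had signals of 674.6 to 717.0 and 17.3 to 34.6 in spy-3 roots, against 913.3 to 966.3 and 56.2 to 59.5 in wild-type roots. EXPA7 was called lower in spy-3 (adjusted p = 0.00274 from limma). AT1G62500, which lay below the array median throughout, was not called (adjusted p = 0.0517 from limma). Of the 3 measured green-tissue genes of 5 listed, PRK and SBPASE lay below the array median throughout, whereas RCA, which encodes Rubisco activase, lay above it. RCA was called lower in spy-3 (limma, adjusted p = 0.0027), where 3.13% of all probe sets were. The summed signal of these 3 genes was 293.5 to 326.6 in spy-3 and 436.5 to 478.6 in wild type, and most of it was RCA. PRK had 1.3 to 13.7 in spy-3 and 4.7 to 8.4 in wild type, and SBPASE had 2.6 to 17.3 in spy-3 and 12.8 to 33.3 in wild type, with overlap in both.

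**Figure D1:**
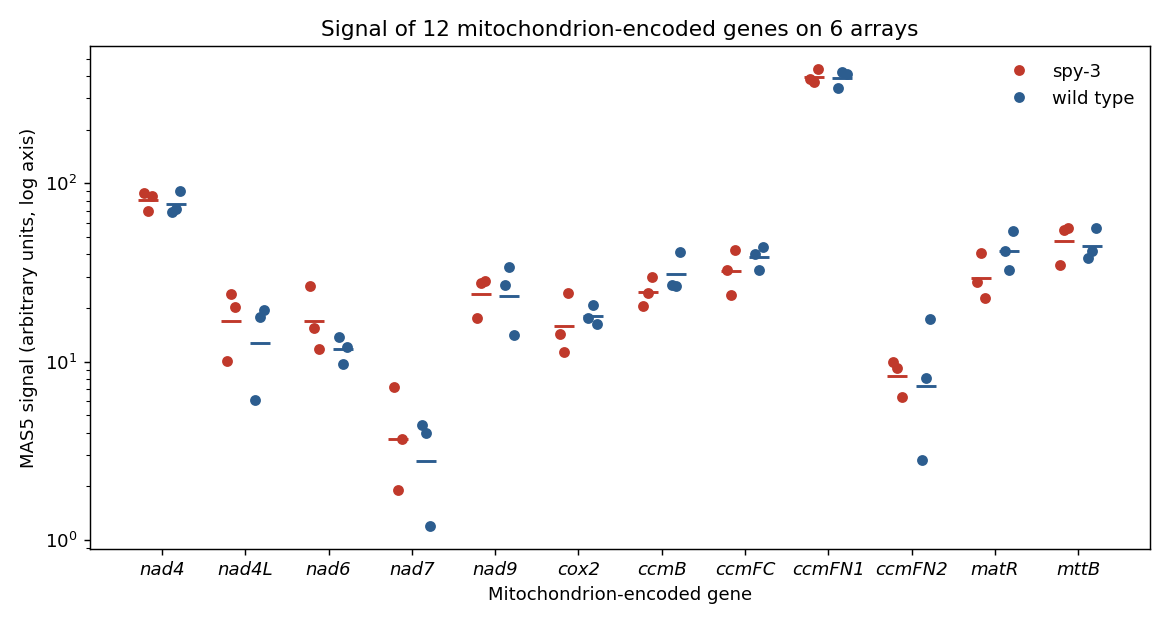
MAS5 signal on a log axis (arbitrary units) of each of the 12 mitochondrion-encoded genes, with a point for each of 3 spy-3 arrays (left of each pair) and 3 wild-type arrays (right), and a bar at the geometric mean. For every gene the points of the genotypes overlap, and the 3 points of a genotype spread more for genes of low signal, such as nad7 at 1.2 to 7.2, than for ccmFN1 at 343.3 to 436.6.

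To determine whether the spy-3 mutation was accompanied by a change in these transcripts, the log2 signals were compared with limma across all 22746 probe sets. None of the 12 was higher and none was lower at an adjusted p of 0.05 with Benjamini-Hochberg adjustment, where 2.64% of all probe sets were higher and 3.13% were lower. At an unadjusted p of 0.05 the count was also 0 of 12, by limma and by an analysis of variance of each probe set. Of all 22746 probe sets, 19.2% passed by limma and 3878 by the analysis of variance. The adjusted p of the members ran from 0.437 to 0.988. In none of the 12 did the 3 values of spy-3 lie wholly above or wholly below those of wild type, which was the case for 12.7% and 11.5% of all probe sets, or 24.2% together. The log2 fold change (spy-3 minus wild type) was positive for 8 members and negative for 4, with a median of 0.05 and a range from -0.51 to 0.53. Over all probe sets the median was 0.02.

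The precision behind these values was low for most members. The median standard error of the log2 fold change was 0.33 over the 12, against 0.14 over all probe sets. Among the dimmest 40% of probe sets by mean log2 signal, which include 9 of the members, the median standard error was 0.59 and 1.07% were called, against 0.084 and 8.90% in the other 60%. The 3 members in the brighter part were ccmFN1, nad4 and mttB. For these 3 and ccmFC, the 95% interval of the difference lay within a 2-fold change in either direction. For the other 8 members the interval reached 2-fold or more in at least 1 direction, so that with these arrays a change of that size could not be told from none.

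The 5 complex I genes encode subunits of NADH dehydrogenase, the entry point of electrons from NADH into the chain. Subunits nad4, nad4L and nad6 belong to the membrane arm, which pumps protons. The nad4 signals were 88.2, 70.1 and 85.1 in spy-3 (81.1 ± 9.7, SD, n = 3), against 68.9, 71.8 and 90.3 in wild type (77.0 ± 11.6, SD, n = 3). The groups overlapped, with the highest value in a wild-type array, and the log2 fold change was 0.08 (standard error 0.15, adjusted p = 0.839 from limma). Its 95% interval corresponded to 0.819-fold to 1.36-fold of the wild-type level. For nad4L the signals were 10.1, 23.9 and 20.2 in spy-3, against 6.1, 17.7 and 19.4 in wild type. One array of each genotype was low and the others lay close together, and the interval of 0.502-fold to 3.50-fold was wide (adjusted p = 0.771 from limma). The gene nad6 had the largest positive value of the 12, with 0.53 on the log2 scale (limma, adjusted p = 0.548, standard error 0.40). Its signals were 26.6, 15.4 and 11.8 in spy-3, against 13.8, 9.7 and 12.1 in wild type. A single spy-3 array stood high, and the lowest spy-3 value lay below 2 of the 3 wild-type values.

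Subunits nad7 and nad9 belong to the peripheral arm, through which electrons pass from NADH toward ubiquinone. The nad7 signals were 7.2, 1.9 and 3.7 in spy-3, against 4.4, 4.0 and 1.2 in wild type. These lie close to the floor of 1, and the interval of 0.393-fold to 4.56-fold spans large changes in either direction (adjusted p = 0.818 from limma). For nad9 the signals were 17.5, 27.5 and 28.3 in spy-3 and 26.9, 34.1 and 14.1 in wild type (log2 fold change 0.02, standard error 0.41, adjusted p = 0.988 from limma). The wild-type arrays held both the highest and the lowest nad9 value. All 5 complex I genes had a positive log2 fold change under the deposited scaling, quantile normalization and median centring, with medians of 0.41, 0.29 and 0.40. With an offset of 16 added to the signals, which weighs low values less, 4 of 5 were positive and the median was 0.07, and with an offset of 64 it was 0.04. When 1 array was left out, 3 to 5 of the 5 were positive. The median was then 0.20 without spy-3 replicate 1, 0.18 without spy-3 replicate 2, 0.28 without spy-3 replicate 3, 0.12 without wild-type replicate 1, 0.39 without wild-type replicate 2 and 0.20 without wild-type replicate 3. Further probe sets of the complex I genes nad1, nad2 and nad5, described below, had values of both signs.

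Of complex IV, the oxidase that passes electrons from cytochrome c to oxygen, only cox2 was among the members. It encodes the subunit that takes up electrons from cytochrome c. Its signals were 14.2, 11.3 and 24.4 in spy-3, against 17.6, 20.8 and 16.3 in wild type. The spy-3 arrays lay on both sides of the wild-type values, and the log2 fold change was -0.20 (standard error 0.37, adjusted p = 0.826 from limma). Without spy-3 replicate 2 the sign turned, with a log2 fold change of 0.04.

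Cytochrome c receives its heme through a maturation pathway of bacterial descent. The ccmB protein is a membrane part of a transporter of this pathway, while ccmFN1, ccmFN2 and ccmFC are parts of the complex that joins heme to the protein, and in Arabidopsis the ccmFN gene is split into separate genes. The ccmFN1 probe set gave the most precise value of the 12. Its signals were 386.5, 368.2 and 436.6 in spy-3 (397.1 ± 35.4, SD, n = 3), against 343.3, 418.5 and 409.7 in wild type (390.5 ± 41.1, SD, n = 3). The log2 fold change was 0.03 (standard error 0.098, adjusted p = 0.929 from limma), and the 95% interval of 0.864-fold to 1.20-fold was the narrowest of the 12. The other part of the split gene, ccmFN2, had signals of 9.9, 9.2 and 6.3 in spy-3 and 2.8, 8.1 and 17.4 in wild type. The spy-3 arrays lay within the wild-type range, and the interval of 0.352-fold to 3.64-fold includes that of ccmFN1 (adjusted p = 0.930 from limma).

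The other pair of this class had negative values. Signals of ccmB were 20.4, 24.1 and 29.9 in spy-3, against 26.8, 26.7 and 41.4 in wild type (log2 fold change -0.34, standard error 0.28, adjusted p = 0.593 from limma). Those of ccmFC were 32.8, 23.7 and 42.5 in spy-3, against 40.2, 32.7 and 43.8 in wild type (log2 fold change -0.27, standard error 0.27, adjusted p = 0.662 from limma). For ccmB 2 of the 3 spy-3 arrays lay below every wild-type array, and for ccmFC 1 did, while the other spy-3 values lay within the wild-type range. The median of the class was -0.12. When 1 array was left out it ran from -0.34, without wild-type replicate 1, to 0.015, without spy-3 replicate 2.

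The gene matR encodes a maturase-related protein of the kind that assists the splicing of group II introns, and it lies inside an intron of nad1. It had the largest negative value and the lowest adjusted p of the 12. Its signals were 28.0, 40.4 and 22.8 in spy-3 (30.4 ± 9.0, SD, n = 3), against 41.8, 32.6 and 54.1 in wild type (42.8 ± 10.8, SD, n = 3). The lowest wild-type array lay below the highest spy-3 array, and the log2 fold change of -0.51 (standard error 0.30) did not pass, with an adjusted p of 0.437 from limma. The interval was 0.427-fold to 1.16-fold. The gene mttB encodes a membrane protein related to the TatC translocase of bacteria. Its signals were 34.7, 54.4 and 56.0 in spy-3, against 38.3, 41.6 and 56.3 in wild type, and the groups overlapped (limma, adjusted p = 0.914, log2 fold change 0.08).

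The 12 genes were also compared over the arrays as a set. Each gene's log2 signal was set against its own mean over the 6 arrays, and the median of these deviations was -0.18, 0.02 and 0.18 in spy-3 replicates 1, 2 and 3, against -0.03, 0.0044 and 0.25 in wild-type replicates 1, 2 and 3. The genotypes overlapped in this measure as well. For the 8 members with every signal at least 10, the medians were -0.29, -0.13 and 0.21 in spy-3 replicates 1, 2 and 3. In wild-type replicates 1, 2 and 3 they were 0.01, -0.08 and 0.25, again with overlap. Wild-type replicate 3 held the highest signal of 6 of the 12 genes, and wild-type replicate 1 held the lowest of 4. The 4 probe sets whose array name carries the s_at mark, which says that their probes match more than 1 transcript, were those of matR, mttB, ccmFC and nad6. A large copy of mitochondrial DNA lies in a nuclear chromosome of Col, and whether RNA from it adds to these signals was not tested. The log2 fold changes of these 4 had a median of -0.09, against 0.05 for the 8 others. In the same range of probe numbers, 5 probe sets were annotated to nuclear AT2G07 loci, most of them with the s_at mark. None of the 5 was called, where 5.77% of all probe sets were. That of AT2G07751, which carries the mark, had signals of 258.7, 253.0 and 296.5 in spy-3, against 341.8, 307.3 and 313.8 in wild type, without overlap (limma, adjusted p = 0.132, log2 fold change -0.25). Without overlap were 24.2% of all probe sets. Whether RNA of the mitochondrial genome adds to these AT2G07 signals was not tested.

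**Figure D2:**
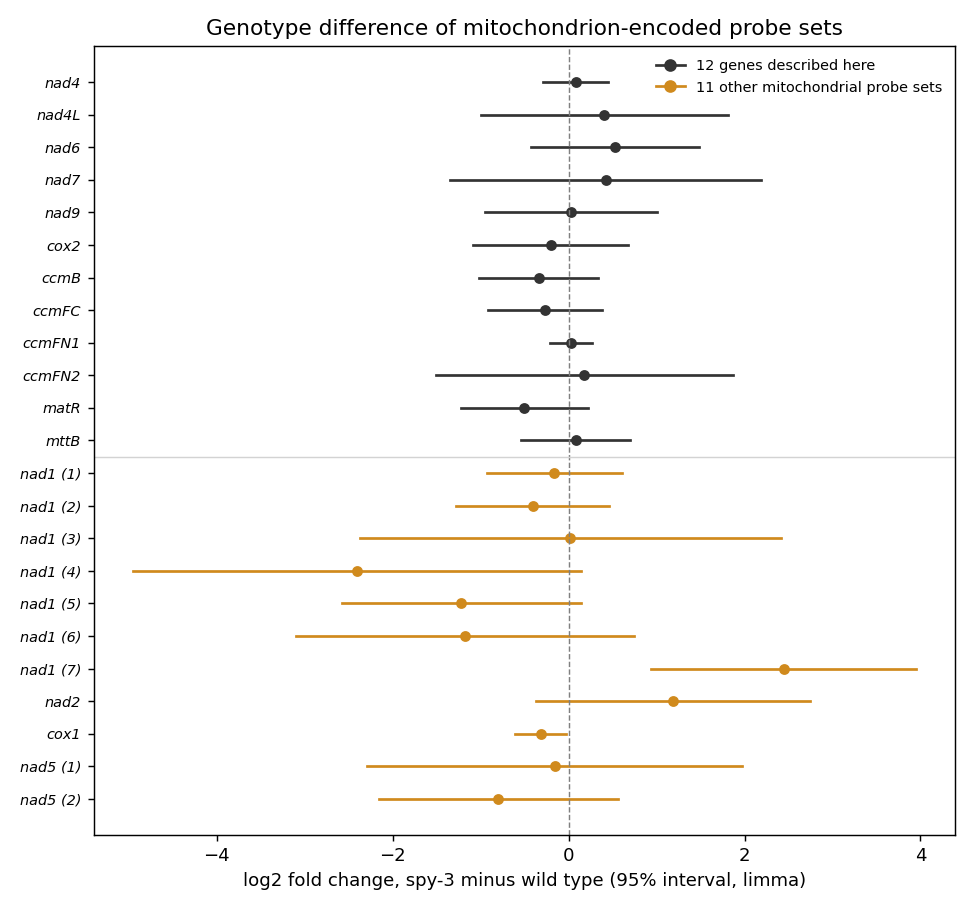
Log2 fold change of spy-3 minus wild type with its 95% interval from limma (x axis) for the 12 mitochondrion-encoded genes (black, above the line) and for 11 other mitochondrial probe sets with higher probe numbers (orange, numbered in order of probe set where a gene has several). The interval of each of the 12 genes includes 0, and the widest intervals belong to probe sets of nad1.

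Another 11 probe sets are annotated to mitochondrial genes alone but have higher probe numbers: 7 of nad1, 2 of nad5, and 1 each of nad2 and cox1. They were added after the deposited table had been opened. The complex I genes nad1, nad2 and nad5 are transcribed in separate pieces that are joined by trans-splicing. None of the 11 passed an adjusted p of 0.05 in limma, where 5.77% of all probe sets did. By analysis of variance none passed either, where 658 of 22746 did. At an unadjusted p of 0.05 limma gave 1 higher and 1 lower, where 19.2% of all probe sets passed. Their median log2 fold change was -0.31. The lower one was cox1, the catalytic subunit gene of complex IV, with signals of 71.8, 85.1 and 68.8 in spy-3, against 92.8, 86.7 and 100.5 in wild type (log2 fold change -0.31, standard error 0.12, adjusted p = 0.225 from limma). All spy-3 values of cox1 lay below the wild-type values, which was not the case for cox2. The probe sets of nad1 had log2 fold changes from -2.41 to 2.45. The one with the positive extreme had signals of 14.1, 7.1 and 8.0 in spy-3, against 3.8, 0.7 and 1.3 in wild type, without overlap (adjusted p = 0.0861 from limma). The one with the negative extreme had 6.2, 1.1 and 22.2 in spy-3, against 25.3, 21.7 and 41.1 in wild type, where the groups overlapped (adjusted p = 0.285 from limma). Probe sets of the same gene thus gave values of opposite sign, at signals of 0.5 to 52.1, and the median of the 7 was -0.41.

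**Figure D3:**
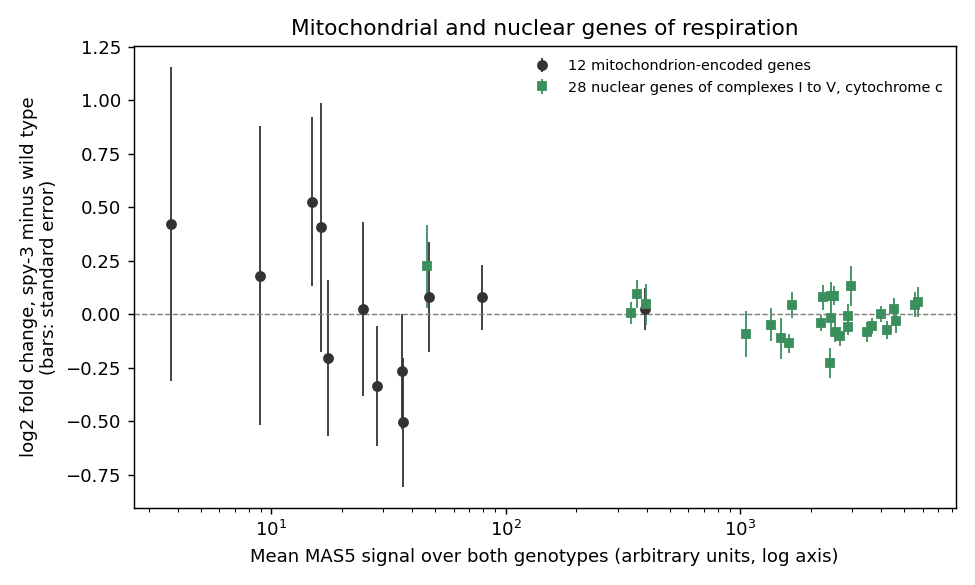
Log2 fold change of spy-3 minus wild type (y axis, with bars of 1 standard error) against the mean MAS5 signal over both genotypes (x axis, log scale) for the 12 mitochondrion-encoded genes (black circles) and 28 nuclear genes of complexes I to V and cytochrome c (green squares). The nuclear genes have bars with a median of 0.056 and lie between -0.23 and 0.22, while the bars of the mitochondrion-encoded genes have a median of 0.33.

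The nuclear genes for subunits of the same complexes were measured with more precision. Of 52 listed genes of complexes I to V and cytochrome c, 28 had an own probe set. None was called at an adjusted p of 0.05 in limma or by analysis of variance. Of all 22746 probe sets, 5.77% were called by limma and 658 by analysis of variance. At an unadjusted p of 0.05, limma gave 2 lower and 0 higher, where 19.2% of all probe sets passed. The analysis of variance gave 3, where 3878 of all 22746 probe sets passed. The median log2 fold change was -0.01, with a range from -0.23 to 0.22, and the median standard error was 0.056. Of the 8 nuclear complex I genes the median was -0.0006, against 0.41 for the 5 mitochondrial ones, which have larger errors and whose median was 0.12 to 0.39 when 1 array was left out. The difference between these medians was not tested. The 0.41 does not include the further mitochondrial complex I probe sets. Of the 7 for nad1, 2 were positive and 5 negative, with a median of -0.41. That of nad2 had 1.19, and those of nad5 had -0.16 and -0.80. Of the 28 nuclear genes the lowest value belonged to AT1G51650, the epsilon subunit gene of ATP synthase. Its signals were 2364.6, 2021.1 and 2295.1 in spy-3, against 2613.1, 2720.7 and 2475.5 in wild type (limma, adjusted p = 0.139, log2 fold change -0.23). It was called lower once the dimmest 40% had been left out (adjusted p = 0.0393 from limma).

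Among 14 listed genes of alternative respiration, which bypass proton-pumping complexes, 5 were measured. Of these, 1 was called, higher in spy-3, where 2.64% of all probe sets were higher. It was the only call among the 42 measured nuclear genes of mitochondrial function. The external NAD(P)H dehydrogenase gene NDB4 had signals of 27.9, 9.7 and 14.3 in spy-3, against 0.9, 1.8 and 2.3 in wild type. The groups did not overlap, and the log2 fold change was 3.29 (standard error 0.56, adjusted p = 0.0233 from limma). The wild-type signals lay at or near the floor of 1, and with an offset of 16 the log2 fold change was 0.88 (adjusted p = 0.0321 from limma). The call was lost by analysis of variance (adjusted p = 0.0878), with an offset of 64 (0.0591), without spy-3 replicate 1 or 3 (0.0626 and 0.0839), and without wild-type replicate 1, 2 or 3 (0.0838, 0.0864 and 0.0541). In the fits that left out 1 array the log2 fold change was 2.87 to 3.64. Its relative NDB2 had signals of 1534.6, 1644.8 and 1558.8 in spy-3, against 1298.4, 1332.7 and 1432.2 in wild type (limma, adjusted p = 0.0603, log2 fold change 0.22). It was called with an offset of 16 or 64, with robust variances, and with the dimmest 40% left out (adjusted p = 0.0411, 0.0425, 0.0378 and 0.0203 from limma). NDB1, NDB3 and NDC1 had log2 fold changes of -0.16, 0.17 and 0.01.

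Genes that act on mitochondrial transcripts were mostly not measured, with 6 of 24 listed having a probe set annotated to them alone. None of the 6 was called, where 5.77% of all probe sets were. Of these 3 had a positive and 3 a negative log2 fold change, with a median of -0.01. The largest value was 0.76 (limma, adjusted p = 0.626, standard error 0.69), for AT1G74350, which encodes the maturase nMAT4, needed for introns of nad1. AT5G15700, which encodes the RNA polymerase RPOTmp shared by mitochondria and plastids, had a value of 0.08 on the log2 scale (limma, adjusted p = 0.844, standard error 0.15). AT5G46920, which encodes the maturase nMAT2, needed for introns of cox2 and nad7 among others, had one of -0.19 (standard error 0.12, adjusted p = 0.446 from limma). OTP87, a pentatricopeptide repeat protein needed for editing of nad7, had one of -0.46 (standard error 0.30, adjusted p = 0.476 from limma). Of 7 listed genes of the mitochondrial stress response 3 were measured, all 3 with negative values and none called. The clearest was AT1G05060, at 91.6, 105.0 and 100.9 in spy-3, against 129.4, 133.1 and 108.9 in wild type (limma, adjusted p = 0.172, log2 fold change -0.32).

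For comparison with the other organelle, 69 probe sets were annotated to plastid genes alone. Of these, 1 was called lower and 0 were called higher, where 3.13% and 2.64% of all probe sets were. A negative log2 fold change was found for 54 of the 69, as it was for 10612 of all 22746, and the median was -0.17, against 4 negative values of 12 and a median of 0.05 for the mitochondrial genes. The difference between the organelles was not tested. The green-tissue gene RCA, encoded in the nucleus, had signals of 295.6, 301.3 and 271.8 in spy-3, against 432.0, 419.0 and 436.9 in wild type, and the part of green tissue in the plastid values was not tested. The median standard error of the plastid probe sets was 0.15.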

How the data were processed

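Labeled cRNA of 3 spy-3 and 3 wild-type root samples was hybridized to Affymetrix ATH1 arrays. The authors deposited 1 linear intensity per probe set and array, obtained with MAS5 as the submitters' processing notes name it (version not given in the sources used here). Detection calls and control probe sets for RNA quality were not analysed here. The mean signal of each array without its highest and lowest 2% was 248.2 or 248.3, so the arrays had been brought to a common level, and a shift shared by most transcripts cannot be seen.

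Intensities under 1 were raised to 1 before taking log2. The genotypes were tested in limma 3.58.1 under R 4.3.3 (lmFit, then eBayes allowing a mean-variance trend), p-values being adjusted by Benjamini-Hochberg over all 22746 probe sets at a threshold of 0.05, and the 95% intervals are from that fit. The methods give an analysis of variance by citation only. As an alternative, an analysis of variance between the genotypes was run per probe set on the log2 signals, and it may differ from the one cited. The procedure was tested on simulated data. Tables were handled with Python 3.11.15 and pandas 2.3.3. Platform annotation gave the gene names, and RefSeq (TAIR10.1) symbols and synonyms the mitochondrial genes, with no coordinates used.

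The members and lists were chosen with earlier results of these data known. Every member is named, as is each listed nuclear gene with an adjusted p under 0.05 and each measured alternative dehydrogenase. The other nuclear genes, the AT2G07 loci and the 11 further mitochondrial probe sets were chosen after their values were seen. Alternatives were quantile normalization, median centring, offsets of 16 and 64, omission of the dimmest 40% by mean log2 intensity, robust or untrended variances, the replicate number as a block, and omission of each array in turn.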

Additional observations from a re-analysis of the deposited data

How the results depend on the processing

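Under all 15 alternatives none of the 12 mitochondrial genes was called in either direction, and their lowest adjusted p was 0.305, for matR. Only 3 of the 12 remained after omission of the dimmest 40%. The median log2 fold change of the 12 was 0.05 and lay between -0.10 and 0.06 when 1 array was left out. It was 0.058 without spy-3 replicate 2, -0.04 without spy-3 replicate 3, -0.10 without wild-type replicate 1 and -0.03 without wild-type replicate 3. The sign of 7 genes turned under at least 1 alternative, and nad4, nad6, ccmB, ccmFC and matR kept theirs. Of the 42 measured nuclear genes of mitochondrial function, 1 was higher and 0 were lower, where 2.64% and 3.13% of all probe sets were. The higher count was 2 with an offset of 16 or robust variances, 0 by the analysis of variance, and 0 to 1 when 1 array was left out; with the dimmest 40% left out 1 was lower. Over all probe sets, deviations from the genotype means correlated at 0.019, 0 and 0.05 between arrays that shared replicate numbers 1, 2 and 3. Arrays with different numbers gave -0.054 to 0.037. Dim probe sets, which have larger errors, counted equally in these values, so whether the arrays were paired could not be judged from them. With the replicate block, 0 of the 12 mitochondrial genes and 0 nuclear genes were called, NDB4 having an adjusted p of 0.0965 in limma, and the median of the 12 was 0.05. The cause of these changes was not tested. Of the 12 members, 9 lay among the dimmest 40% of probe sets, and each genotype had 3 arrays. Signal over background was not analysed here.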
